A study of Mus musculus with 6 samples.

Results

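The smooth muscle cells of mouse dorsal skin were examined in single-cell RNA sequencing data, as the 2366 barcodes in which Myh11, the smooth muscle myosin heavy chain, was counted at least as often as Rgs5, a regulator of G protein signalling that is abundant in pericytes. They were taken from 2937 mural barcodes, the cells that wrap vessels or form dermal muscle, and made up 80.6% of these and 4.65% of all 50850 barcodes kept. A mural barcode held at least 20 UMIs (unique molecular identifiers, each marking 1 captured transcript) of Acta2, Tagln, Myl9 and Rgs5 together per 10000 UMIs, at least 2 UMIs of Rgs5 and Myh11, no UMI of the leukocyte gene Ptprc, under 10 per 10000 of the keratins Krt5 and Krt14, and fewer than 2 UMIs of the endothelial genes Pecam1 and Cdh5. The 571 mural barcodes with more Rgs5 than Myh11 are called pericytes here. The members were thus chosen by their UMIs of these genes, whose levels are given as description only.

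The study asked how the SHP2 inhibitor SHP099, which locks this phosphatase (gene Ptpn11) in its closed form, acts on psoriasis-like inflammation that imiquimod (IMQ), an agonist of Toll-like receptor 7, raises in mouse skin. All animals were female C57BL/6J mice aged 8 to 10 weeks, and 6 libraries from dorsal skin fell into 3 groups of 2. Sham mice received neither IMQ nor SHP099, IMQ mice received 62.5 mg of 5% IMQ cream a day on the shaved back for 4 days, and IMQ+SHP099 mice received the same cream together with 10 mg/kg SHP099 a day by gavage for 4 days. Each library pooled several mice, so that p-values measure the spread between libraries and not between animals.

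Smooth muscle in skin lies in the walls of arteries, arterioles and veins and in the arrector pili muscles that raise the hairs. Its cells contract when calcium activates myosin light chain kinase, and their contractile genes are switched on by serum response factor (SRF) with its partner myocardin at CArG boxes in the DNA. In injured vessels such cells are known to lose contractile gene expression and to make more matrix and migration-related proteins, a change known as the switch to a synthetic state.

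The CArG box is the DNA element through which SRF acts, and 4 promoters that hold one are shown because they belong to contractile genes measured in these cells. Each line gives the 250 bases before the transcription start from RefSeq (GRCm38.p6), 5′ to 3′ on the strand of the gene, with the CArG box in capitals. Myl9 encodes the regulatory myosin light chain, Myl6 the essential light chain, Vcl vinculin, which anchors actin at adhesions, and Ldb3 a protein of the actin anchoring plaques.
Myl9, chr2:156775214-156775463, plus strand: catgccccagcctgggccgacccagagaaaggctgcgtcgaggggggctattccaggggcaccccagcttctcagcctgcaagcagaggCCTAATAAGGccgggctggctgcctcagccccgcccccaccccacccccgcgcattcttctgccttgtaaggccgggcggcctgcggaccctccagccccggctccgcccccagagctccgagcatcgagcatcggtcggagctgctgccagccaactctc
Vcl, chr14:20929148-20929397, plus strand: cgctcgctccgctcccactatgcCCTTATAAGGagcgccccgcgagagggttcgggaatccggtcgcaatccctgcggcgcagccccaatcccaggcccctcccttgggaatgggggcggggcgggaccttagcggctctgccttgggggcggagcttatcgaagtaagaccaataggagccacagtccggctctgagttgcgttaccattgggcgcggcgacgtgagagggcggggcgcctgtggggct
Myl6, chr10:128493010-128493259, minus strand: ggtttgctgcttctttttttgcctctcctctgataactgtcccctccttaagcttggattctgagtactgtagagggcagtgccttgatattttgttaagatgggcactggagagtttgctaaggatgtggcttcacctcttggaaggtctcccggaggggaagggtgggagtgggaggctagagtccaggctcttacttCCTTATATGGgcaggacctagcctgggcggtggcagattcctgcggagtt
Ldb3, chr14:34588682-34588931, minus strand: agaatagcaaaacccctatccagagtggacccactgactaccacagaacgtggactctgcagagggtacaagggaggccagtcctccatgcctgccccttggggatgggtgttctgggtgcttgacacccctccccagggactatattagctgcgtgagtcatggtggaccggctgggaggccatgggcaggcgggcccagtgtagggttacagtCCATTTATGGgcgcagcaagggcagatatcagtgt
With the window extended to 50 bases after the start, a CArG box was found in 5 of the 27 listed contractile genes that have a promoter entry (18.5%), against 1.81% of 27025 genes in the table. The contractile list names 34 genes. A match is a description of the letters in the window, and both strands were searched.

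The libraries held 65 and 133 smooth muscle barcodes in Sham skin, 493 and 906 in IMQ skin, and 83 and 686 in IMQ+SHP099 skin. Their summed UMIs ranged from 430732 to 10697330 a library, so that the Sham values and those of the first IMQ+SHP099 library rest on the fewest counts. Any pair of libraries shared 12 to 30 kept barcode sequences, which touched 27 of the members, and none was a smooth muscle barcode in more than 1 library. The 12 smooth muscle markers summed to between 441 and 647 UMIs per 10000 in these barcodes and to between 101 and 271 in pericytes, but most of these UMIs came from the gate genes Acta2, Tagln and Myh11. The 9 markers outside the gate summed to between 76.5 and 113 per 10000 in smooth muscle and to between 21.6 and 41.0 in pericytes. Markers of other cells were low, with endothelial markers between 0.0696 and 0.581 per 10000 and Schwann cell markers between 0.196 and 0.453. The 8 fibroblast markers were higher, at 29.2 and 18.4 per 10000 in Sham skin, 23.1 and 36.3 in IMQ skin, and 12.7 and 20.3 in IMQ+SHP099 skin. The keratinocyte markers stood at 3.34 and 1.91 per 10000 in Sham skin, 1.18 and 0.748 in IMQ skin, and 4.18 and 0.620 in IMQ+SHP099 skin. The part of these foreign transcripts in the results below was not tested, except where values without the barcodes richest in them are given.

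The rule separated barcodes with much Myh11 from those with much Rgs5, although some lay at its edge. In 94.4% of members Myh11 had at least 10 UMIs, and in 44.9% Rgs5 was at 0. Within 5 UMIs of the boundary lay 192 members, with medians of 10 Myh11 and 8 Rgs5 UMIs, and 122 pericytes, with medians of 11 and 14. Equal counts of both genes were found in 29 members. Levels are given below as CPM, the UMIs of a gene scaled to 1000000 UMIs of the same class and library. After TMM scaling, which evens out differences in composition between libraries, Myh11 stood at 5276 and 5612 CPM in Sham skin, 4199 and 4202 in IMQ skin, and 5127 and 4871 in IMQ+SHP099 skin, against 26.0 to 515 over all kept barcodes of a library.

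Smooth muscle barcodes took a larger share of the mural barcodes in IMQ than in Sham, but the exact permutation test used for shares cannot pass with 2 libraries a group. The share was 67.0% and 49.8% in Sham skin, 82.0% and 84.7% in IMQ skin, and 73.5% and 86.9% in IMQ+SHP099 skin. The means were 58.4% ± 12.2 (SD, n = 2) in Sham and 83.4% ± 1.87 in IMQ, a difference of 24.94 percentage points without overlap (two-sided exact permutation test, p = 0.333, the smallest p this design allows). IMQ+SHP099 overlapped IMQ and differed from it by -3.15 percentage points (two-sided exact permutation test, p = 1.0). Barcodes without many keratin transcripts gave the same order, with 1.88% and 1.97% smooth muscle in Sham skin, 7.95% and 9.66% in IMQ skin, and 3.08% and 9.96% in IMQ+SHP099 skin. Dissociation yields set such shares as well as tissue composition, and these data cannot tell them apart.

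**Figure D1:**
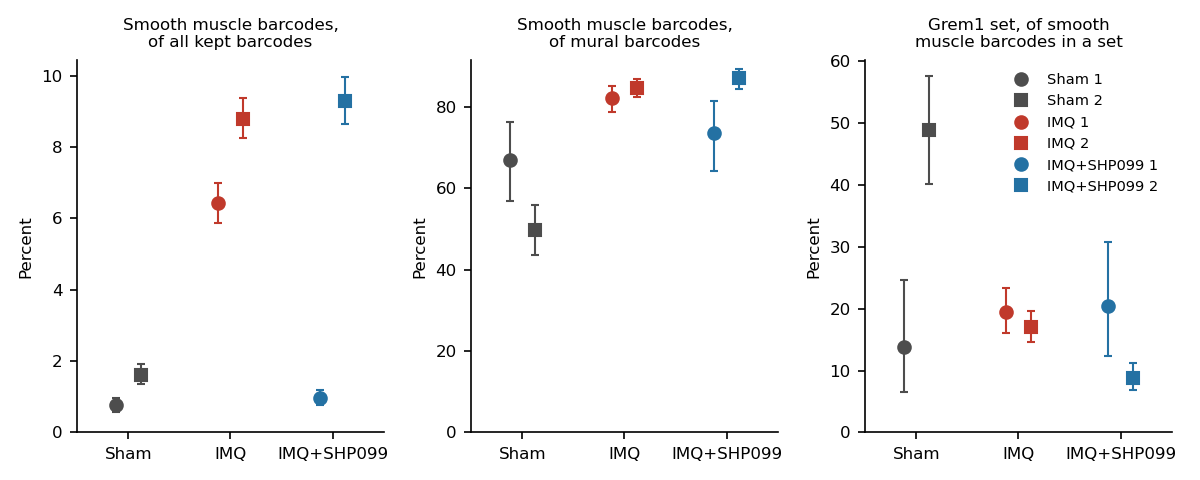
Percent of smooth muscle barcodes among mural barcodes and among other denominators, and percent of smooth muscle barcodes in the Grem1 set, with 1 point a library. Both IMQ libraries (82.0% and 84.7% of mural barcodes) lie above both Sham libraries, and Sham 2 has the highest Grem1 set share (48.9%).

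Next to pericytes of the same library, the smooth muscle barcodes were rich in the contractile apparatus. Of 30 contractile genes outside the gate with enough counts (20 CPM in either class), 27 were higher in smooth muscle in all 6 libraries, and Itga7, a laminin receptor, was lower in all 6. The median log2 ratio of the list was 1.25. Over all 6589 genes at that level, 10.5% were higher and 16.9% lower in all 6 libraries, with a median of -0.12. As the classes were drawn by expression, no test applies to this contrast.

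Cnn1 (calponin, an actin-binding inhibitor of myosin ATPase) stood at 666 and 980 CPM in Sham smooth muscle, 584 and 731 in IMQ skin, and 1470 and 524 in IMQ+SHP099 skin. In pericytes it stood between 11.9 and 60.2, so that no library's classes came near each other. Actg2, the enteric smooth muscle actin, had a median log2 ratio of 3.72 and Mustn1, a small muscle nuclear protein, 1.48. Des, the intermediate filament desmin, was shared more evenly, with a median of 0.81. Among regulators, Myocd, Tead1 and Hey2 were higher in smooth muscle in every library.

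The 12 genes with the highest median ratios to pericytes included Nptx2 (log2 6.29), a secreted pentraxin, Grem1 (6.24), a BMP antagonist, Scx (5.51), a tendon transcription factor, the growth factor binding protein Igfbp2 (5.51), the adrenergic receptor gene Adra2c (5.43) and the growth factor receptor gene Fgfr2 (5.37). BC051019, Actc1, Bche, Bdh1, Ckm and Pcp4 completed them, between 4.89 and 6.18. These ratios were taken with 1 CPM added to both classes, and in pericytes most of these genes averaged under 1 CPM. With 10 CPM added the values fell to 3.13 for Nptx2, 3.09 for Grem1 and 2.15 for Pcp4, below Cnn1 (3.75) and Actg2 (3.54), so that the order depends on this choice. The genes furthest on the pericyte side were Tnfrsf21 (-5.41), Agt, which encodes angiotensinogen (-5.05), Adra2a (-3.52), Arhgdib (-3.38), Tspan15 (-3.18), Nrgn (-3.02), the potassium channel gene Kcnj8 (-2.99) and the cation channel gene Trpc6 (-2.92). Kcnj8 stood between 3.49 and 9.80 CPM in smooth muscle and between 16.3 and 217 in pericytes.

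Immune-related lists lay on the pericyte side. Endothelial markers did so too, on the scale used above, at 0.332 to 3.06 in pericytes against 0.0696 to 0.581 in smooth muscle. Leukocyte markers stood at 28.2 against 3.38 in IMQ+SHP099 1 but were lower in pericytes of Sham 2 and IMQ 2. Keratinocyte markers stood at 69.9 against 3.34 in Sham 1 and differed little elsewhere. Sham 1 and IMQ+SHP099 1 held only 32 and 30 pericytes. The part of these transcripts in the ratios was not tested. Of 14 MHC class I and antigen processing genes, 11 were lower in smooth muscle in all 6 libraries, among them B2m and Tap1, and none was higher. Of 32 chemokine, cytokine and acute-phase genes, 14 were lower, among them Cxcl1, Il6 and Cxcl12, and none was higher. Of 16 genes of SHP2, its adaptors and ERK output, 7 were lower, 5 of them ERK feedback inhibitors of the Spry and Spred families. Of 9 pericyte markers 7 were lower, while Cspg4 was higher.

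**Figure D2:**
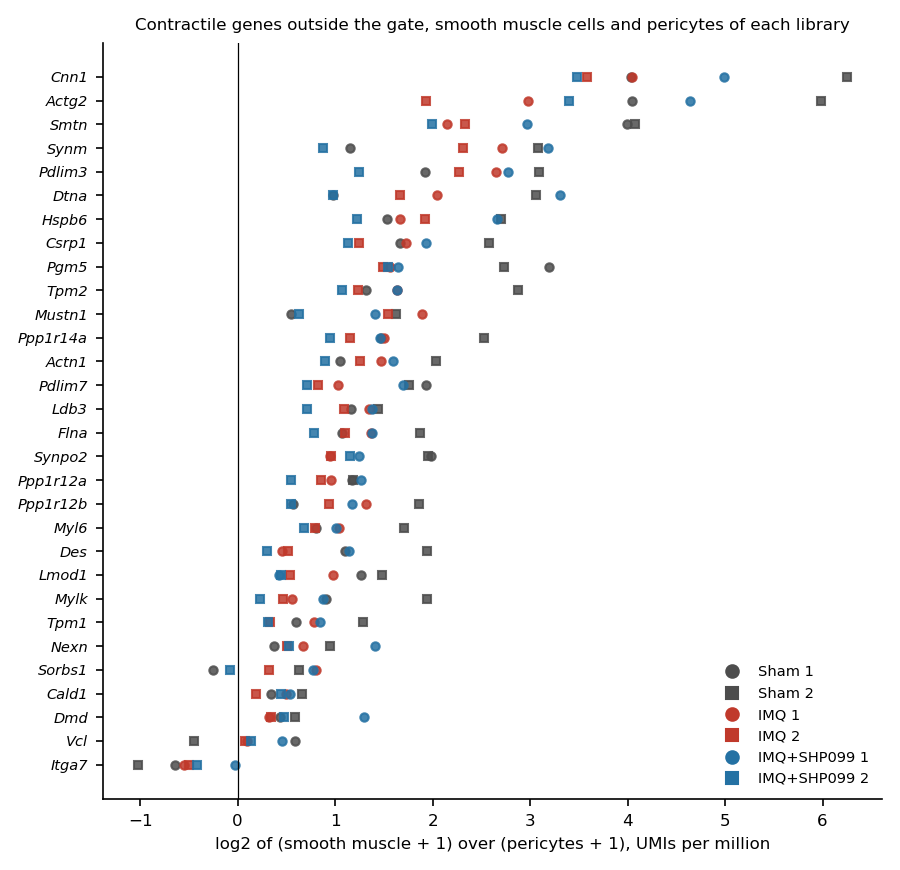
Log2 ratio of smooth muscle to pericyte CPM for the contractile genes outside the gate, with 1 point a library. Nearly all points lie right of 0, with Cnn1 at a median of 4.04, while Itga7 lies left of 0 in all 6 libraries.

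The smooth muscle barcodes were not uniform. They fell into 2 sets by 8 genes that were picked after the cells had been seen, so the split and what follows from it are description. UMIs of Notch3, Tinagl1, Sncg and Epas1 outnumbered those of Enpp2, Gja1, Fgfr2 and Grem1 in 1960 barcodes (82.8%), called the Notch3 set. The reverse held in 401 barcodes (16.9%), called the Grem1 set, and 5 barcodes were tied. Only 56 barcodes (2.37%) had between 20% and 80% of these UMIs from the Notch3 side, whereas 1913 had over 80% and 395 under 20%.

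**Figure D3:**
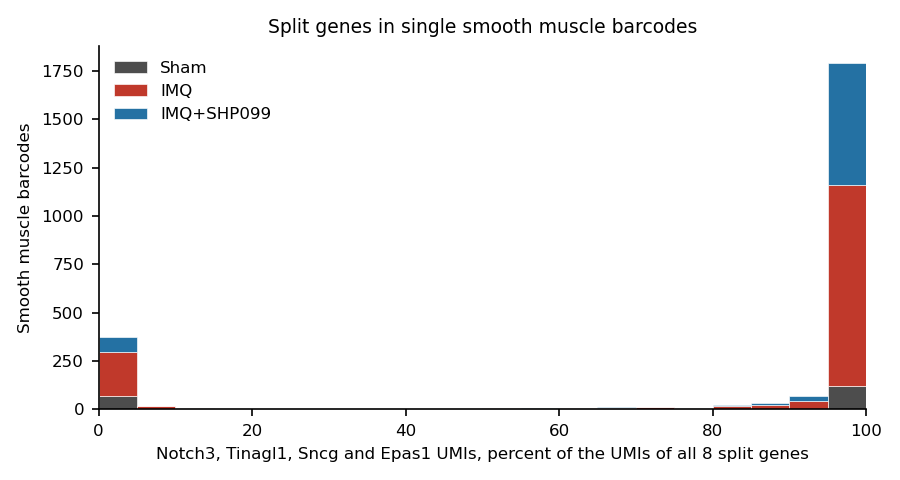
Number of smooth muscle barcodes by the percent of the 8 split genes' UMIs that came from Notch3, Tinagl1, Sncg and Epas1, with groups stacked. Barcodes gather at both ends of the axis, 1913 above 80% and 395 below 20%, with 56 between.

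Both sets were present in every library, in unequal parts. The Grem1 set made up 13.8% and 48.9% of smooth muscle barcodes in Sham skin, 19.5% and 17.0% in IMQ skin, and 20.5% and 8.80% in IMQ+SHP099 skin. Sham 2 stood apart with close to equal parts of both sets, and Sham 1 contributed only 9 barcodes to the Grem1 set. The Sham and IMQ shares overlapped (two-sided exact permutation test, p = 1.0).

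The sets carried different receptors for the signals that set muscle tone. P2rx1, the ATP-gated channel of sympathetic transmission, stood at 271 and 282 CPM in the Sham Notch3 set, 545 and 539 in IMQ skin, and 628 and 508 in IMQ+SHP099 skin, and at no more than 4.80 in any Grem1 set. Npy1r, the neuropeptide Y receptor, stood between 133 and 444 in the Notch3 set and at no more than 6.41 in the Grem1 set. Both genes were thus found in the Notch3 set of every library and close to absent from the other.

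Adra1a, the alpha-1A adrenergic receptor, had the opposite pattern, with 272 and 359 CPM in the Sham Grem1 set, 131 and 137 in IMQ skin, and 218 and 178 in IMQ+SHP099 skin, against 2.11 to 28.7 in the Notch3 set. Adra2c stood between 172 and 371 in the Grem1 set and at no more than 1.86 in the Notch3 set. Of 16 receptors of vascular and pilomotor tone at 20 CPM or more, 7 were higher in the Notch3 set in all 6 libraries (Ednra, Avpr1a, P2rx1, Ptgir, Tbxa2r, Npy1r, Calcrl) and 6 were lower (Adra1a, Adra2c, Ptger4, Ptgfr, Npr2, Ramp1). Over all 6580 genes at that level, 15.7% were higher and 19.2% lower.

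Genes of the nitric oxide pathway, which relaxes vessels through cyclic GMP, lay on the Notch3 side. Gucy1a1, a subunit of the nitric oxide receptor, stood between 145 and 643 CPM in the Notch3 set and at no more than 10.9 in the Grem1 set. Of 16 genes of nitric oxide and cyclic nucleotide relaxation, 10 were higher in the Notch3 set, among them Gucy1b1, Pde5a and Rgs4, and 4 were lower, among them Mrvi1 and Rgs2.

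Contractile and transcription factor genes split between the sets. Of 30 contractile genes 14 were lower in the Notch3 set in all 6 libraries, including Cnn1, Smtn and Synpo2, and 4 were higher (Mustn1, Vcl, Itga7, Nexn). Des stood at 782 and 609 CPM in the Sham Notch3 set against 5423 and 5397 in the Sham Grem1 set, and at 997 and 940 against 3962 and 3447 in IMQ. In IMQ+SHP099 it stood at 1976 and 660 against 5479 and 2755, so the Grem1 set was higher in every library. Srf and Myocd were lower in the Notch3 set in all 6 libraries, whereas the Notch ligand gene Jag1 and the Notch target genes Hey2 and Heyl were higher. Heyl stood between 47.2 and 179 in the Notch3 set and at no more than 2.88 in the Grem1 set.

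Timp4, which encodes an inhibitor of matrix metalloproteinases, marked the Notch3 set with 496 and 211 CPM in Sham skin, 1223 and 883 in IMQ skin, and 1041 and 900 in IMQ+SHP099 skin. In the Grem1 set Timp4 was at 0 in 5 libraries and at 3.84 in Sham 2. Nptx2 and Scx marked the Grem1 set, with Nptx2 between 286 and 1165 there and at no more than 3.39 in the Notch3 set. Npnt, which encodes the integrin ligand nephronectin, stood between 316 and 647 in the Grem1 set and between 12.6 and 27.0 in the Notch3 set. Itga8, which encodes an integrin subunit that binds nephronectin, did not follow the split, with a median log2 ratio of -0.63 and higher values in the Notch3 set of 1 library of 6. Col18a1, a basement membrane collagen gene, was at least 649 in the Notch3 set and at most 21.8 in the Grem1 set. Of the 8 fibroblast markers none was higher or lower in all 6 libraries.

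**Figure D4:**
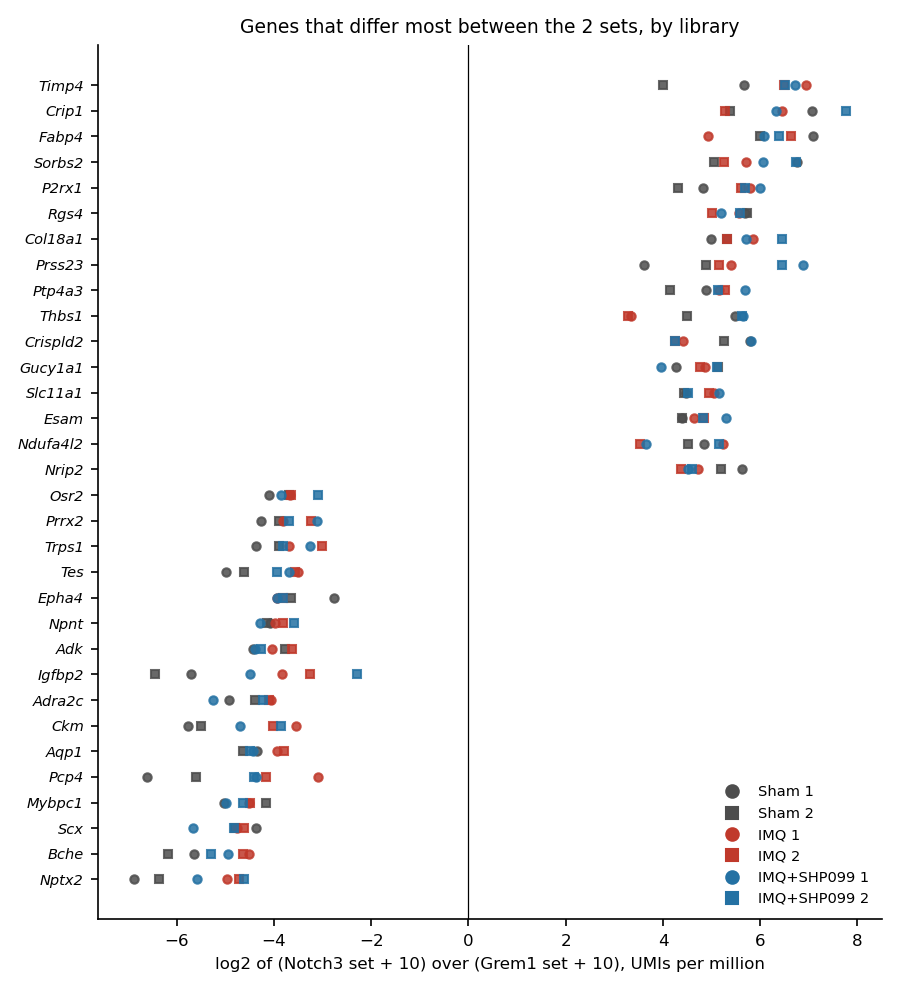
Log2 ratio of the Notch3 set to the Grem1 set for the genes that differed most between them, with 10 CPM added to both and 1 point a library. The points of a gene lie on 1 side of 0 in all 6 libraries, with median ratios of 6.49 for Timp4 and -5.27 for Nptx2.

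IMQ treatment was accompanied by higher levels of a few matrix and synthetic-state genes in smooth muscle cells, 4 of 53 and 3 of 16 tested. Summed UMIs per library were compared with edgeR's quasi-likelihood test with Benjamini-Hochberg adjustment over 11118 genes, and values from here on are CPM after TMM scaling unless said otherwise. Of these genes 47 rose (0.423%) and 73 fell (0.657%), 1.08% in all, and 1768 (15.9%) had an unadjusted p under 0.05. Sham 2 weighed heavily on these counts, since without it 12 genes passed, of which 4 were among the 120 (Col8a1, Saa3, Serpina3n and Nrgn), while without Sham 1 there were 590. Without IMQ 1 there were 39 and without IMQ 2 there were 32. In sums over barcodes, more cells of one set and more RNA per cell cannot be told apart.

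Col8a1 (chr16:57624258-57754737, minus strand, GRCm38), a short-chain collagen of vessel walls, stood at 32.1 and 11.7 in Sham skin, 178 and 179 in IMQ skin, and 170 and 191 in IMQ+SHP099 skin. Its libraries did not overlap between Sham and IMQ, as was so in this direction for 25.7% of genes tested, and it rose by a log2 of 3.32 ± 0.395 (SE; edgeR quasi-likelihood test, adjusted p = 0.0174). It passed without each Sham or IMQ library in turn, with log2 values between 2.52 and 3.95, and so did Serpina3n, described below. Both genes also passed under each of 13 alternative settings run over all smooth muscle cells, which counts those omissions. Within the Notch3 set it stood at 41.3 and 35.4 CPM in Sham and 206 and 203 in IMQ, and rose by 2.60 (edgeR, adjusted p = 0.00327).

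Other matrix genes rose with it. Col12a1 (chr9:79598991-79718831, minus strand), a collagen that bridges fibrils, stood at 52.7 and 22.4 in Sham skin, 214 and 220 in IMQ skin, and 182 and 248 in IMQ+SHP099 skin, with a log2 of 2.72 ± 0.380 (edgeR, adjusted p = 0.0233). Tnc (chr4:63959785-64047015, minus strand), the wound matrix protein tenascin C, stood at 11.5 and 12.2, 205 and 134, and 146 and 121, with a log2 of 3.81 ± 0.343 (edgeR, adjusted p = 0.00587). Col5a3 also rose (log2 1.79) and Col4a6, a basement membrane collagen gene, fell by 1.82 on the log2 scale. Of 53 basement membrane and matrix genes tested 4 rose and 1 fell, and their median log2 was 0.46 against -0.02 for all genes. Without Sham 2, Col12a1 and Tnc missed the threshold (edgeR, adjusted p = 0.128 and 0.0811).

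Among 16 genes of the synthetic state 3 rose and none fell, with a median of 0.77. S100a4 (chr3:90603771-90606045, plus strand), a calcium-binding protein linked to cell motility, stood at 294 and 191 in Sham skin, 1539 and 1318 in IMQ skin, and 957 and 1340 in IMQ+SHP099 skin (log2 2.58 ± 0.313, edgeR, adjusted p = 0.0174). Tpm4, a tropomyosin of the cytoskeleton, stood at 142 and 155, 542 and 468, and 461 and 403 (log2 1.76 ± 0.235, edgeR, adjusted p = 0.0207). Col8a1 was the third of these. S100a4 rose within the Notch3 set (log2 2.05, adjusted p = 0.0109) and within the Grem1 set (2.56, adjusted p = 0.00139), both by edgeR's quasi-likelihood test.

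The gap junction genes Gja4 and Gja5, whose connexins couple the cells of arteries, rose when all smooth muscle cells were summed. Gja4 stood at 82.5 and 53.8 in Sham skin, 214 and 227 in IMQ skin, and 186 and 300 in IMQ+SHP099 skin (log2 1.75 ± 0.317, edgeR, adjusted p = 0.0411). Gja5 stood at 20.6 and 11.7, 54.8 and 62.7, and 43.3 and 46.4 (2.05 ± 0.308, edgeR, adjusted p = 0.0302). Both were found almost only in the Notch3 set, where Gja4 had a log2 of 1.08 (adjusted p = 0.104) and Gja5 of 1.24 (adjusted p = 0.0903) by the same test, short of the threshold. Gja4 stood there at 106 and 162 CPM before TMM scaling in Sham and at 248 and 263 in IMQ. The Grem1 set share was larger in Sham 2 (48.9%) and smaller in Sham 1 (13.8%) than in IMQ (19.5% and 17.0%). The part of these shares in the result was not tested.

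The largest increases were in acute-phase genes, which the liver and inflamed stroma secrete. Saa3, a serum amyloid A, was at 0 in both Sham libraries, 1614 and 983 in IMQ skin, and 192 and 283 in IMQ+SHP099 skin. It was at least 934-fold higher in IMQ than in Sham, with the Sham level set to 3 UMIs over the group (edgeR, adjusted p = 9.73e-04). Lcn2, an iron-carrier-binding lipocalin, was at 0 in Sham skin, 159 and 154 in IMQ skin, and 107 and 47.0 in IMQ+SHP099 skin, at least 120-fold higher in IMQ (edgeR, adjusted p = 0.00816). Over all kept barcodes Saa3 stood at 7205 and 4792 CPM in IMQ, above its level in the smooth muscle cells.

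Most IMQ UMIs of these genes came from a minority of barcodes that also held fibroblast transcripts. Of the smooth muscle barcodes 274 (11.6%) had at least 10 UMIs of the fibroblast genes Dcn, Lum and Pdgfra per 10000, and they held 5.99% of smooth muscle UMIs in Sham skin, 19.3% in IMQ skin and 11.6% in IMQ+SHP099 skin. In IMQ these barcodes held 98.6% of the Saa3 UMIs, 88.0% of Lcn2, 96.7% of Cxcl14, 99.1% of Prg4 and 98.0% of Lbp. Without them Saa3 stood at 22.2 and 20.2 CPM in IMQ and at 15.1 and 25.3 in IMQ+SHP099. Saa3 and Lcn2 still passed against Sham without them (edgeR, adjusted p = 0.0121 and 0.0375).

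The matrix and cytoskeletal genes were spread over barcodes much as UMIs in general were. The fibroblast-transcript barcodes held 16.2% of Col8a1 UMIs in IMQ, 17.5% of S100a4, 20.4% of Col12a1, 15.6% of Tpm4 and 11.4% of Gja4. Tnc lay between, with 53.5%. Without these barcodes Col8a1 rose by a log2 of 3.63 (edgeR, adjusted p = 0.00805) and Tnc by 3.13 (edgeR, adjusted p = 0.0116). Of the 47 genes that rose, 42 could be tested without these barcodes, 41 had the same direction and 40 passed.

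Monocyte-attracting chemokine genes rose as well when all smooth muscle cells were summed. Ccl2 stood at 32.1 and 14.4 in Sham skin, 90.6 and 130 in IMQ skin, and 149 and 117 in IMQ+SHP099 skin (log2 2.47 ± 0.389, edgeR, adjusted p = 0.0304). Ccl7 stood at 4.59 and 5.86, 55.0 and 78.4, and 177 and 87.3 (3.58 ± 0.499, edgeR, adjusted p = 0.0233). The fibroblast-transcript barcodes held 50% of the Ccl2 and 73.8% of the Ccl7 UMIs in IMQ. Of 38 tested genes of chemokines, cytokines and the acute phase 5 rose (Ccl2, Ccl7, Lcn2, Saa3, Cfb) and none fell, with a median of 0.76. Within the Notch3 set the median was 0.33, and over the 30 genes tested within the Grem1 set it was 2.33. Il6 stood at 68.8 and 141 in Sham skin, 70.6 and 155 in IMQ skin, and 39.9 and 97.3 in IMQ+SHP099 skin, with groups that overlapped. Serpina3n, a protease inhibitor of the acute phase, stood at 29.8 and 13.8, 272 and 243, and 194 and 185 (3.78 ± 0.348, edgeR, adjusted p = 0.00587). The fibroblast-transcript barcodes held 75.1% of its IMQ UMIs.

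**Figure D5:**
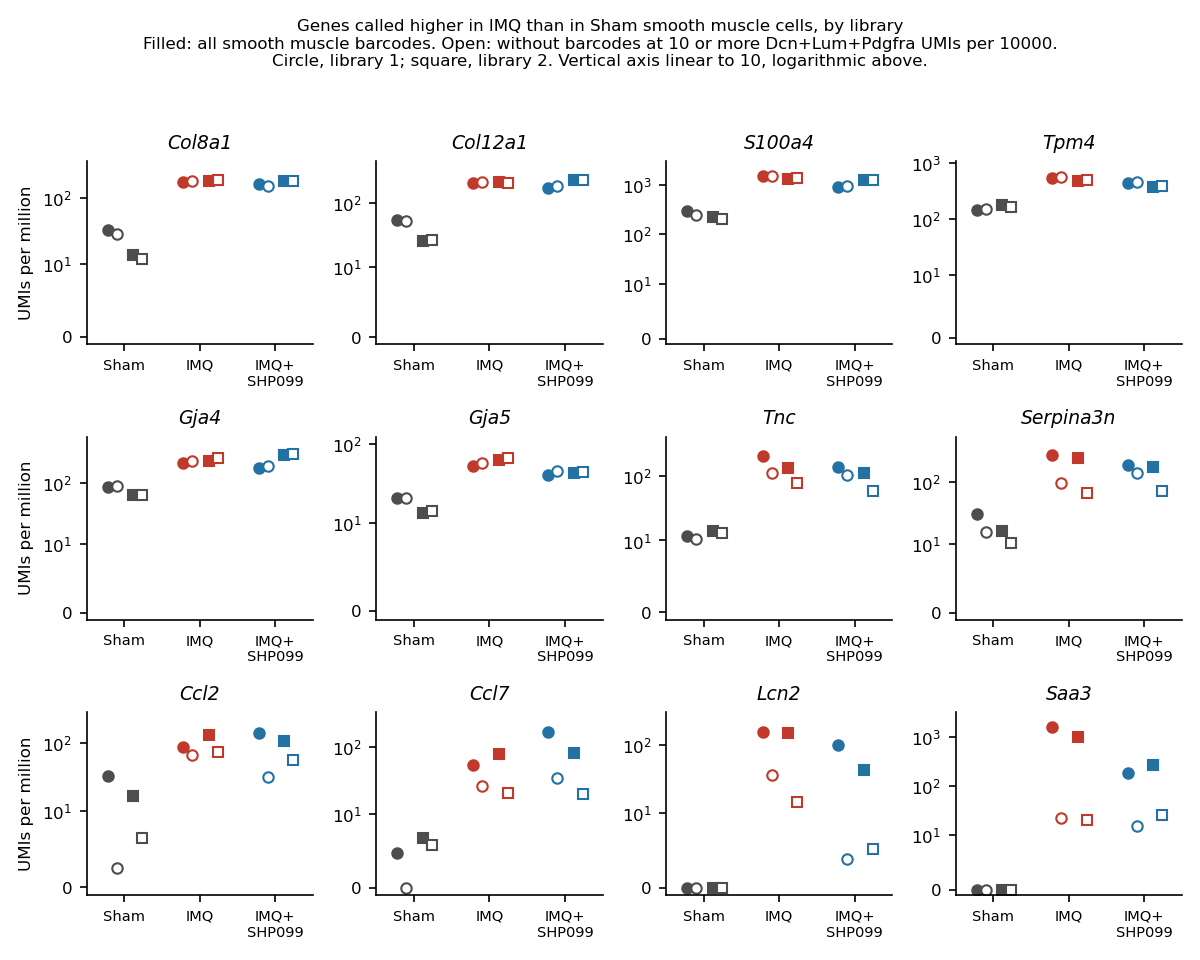
CPM, before TMM scaling, of genes called higher in IMQ than in Sham, by library, for all smooth muscle barcodes (filled) and without the barcodes rich in fibroblast transcripts (open). Axes are linear to 10 and logarithmic above. Open points of Saa3 fall to about 20 in IMQ, while those of Col8a1 stay beside the filled ones.

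Remaining named genes that rose were S100a9, a calprotectin subunit of neutrophils and inflamed keratinocytes, Cp (ceruloplasmin, log2 3.07), and the non-coding A730049H05Rik (3.18). S100a9 was at 0 in Sham skin, 55.5 and 125 in IMQ skin, and 163 and 47.2 in IMQ+SHP099 skin, while over all kept barcodes it stood at 8615 and 4882 in the IMQ and at 14918 and 4725 in the IMQ+SHP099 libraries. Prg4, Cxcl14 and Lbp, already described by their barcodes, also passed, and in IMQ stood between 30.6 and 66.1. No promoter of the 30 risen genes with an entry held a CArG box. An NF-kB site was found in 1 of these 30 (Got1), in 9 of 30 genes of the chemokine list with an entry (30%), in 4 of 27 contractile genes (14.8%), and in 5.14% of all genes.

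The genes that fell formed several groups. Keratinocyte genes were the first, among them Krt77 at 39.0 and 10.1 in Sham and at 0 in the other libraries, and the desmosome gene Dsp at 18.3 and 25 in Sham against 2.34 and 1.79 in IMQ. Dmkn and Ly6d, also of the epidermis, fell by 3.94 and 3.80 on the log2 scale. In Sham these 4 genes stood at 0.473% to 13.2% of their level over all kept barcodes. The keratinocyte markers given above moved with them between Sham and IMQ, and their part in the result was not tested. Cd74, of antigen-presenting cells, and Sox18, best known from endothelium, fell by 3.42 and 4.41, whereas some other genes of those cells had values in the opposite direction. The 8 leukocyte markers together stood at 0.0929 and 0.729 UMIs per 10000 in Sham and at 1.10 and 2.70 in IMQ, and S100a9 was among those that rose. Flt1, the endothelial marker with enough counts to be tested, stood at 6.88 and 26.6 in Sham and at 50.3 and 53.0 in IMQ (log2 1.31, edgeR, adjusted p = 0.136). The Sham UMIs of Sox18 in the Grem1 set were 13 and 18, or 142 and 17.3 CPM before TMM scaling. In the Sham Notch3 set Sox18 stood at 0 and 5.06. Sox18 also fell within the Grem1 set (log2 -4.88, edgeR, adjusted p = 0.0409).

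The second were genes of the Grem1 set. Of the 73 genes that fell 14 were over 4-fold higher in that set, against 1.17% of genes tested, and the Grem1 set was larger in Sham 2 than elsewhere. Summed dermal sheath and skeletal muscle markers were also lower in IMQ. The 5 dermal sheath markers together stood at 0.464 and 0.490 in Sham and at 0.0798 and 0.164 UMIs per 10000 in IMQ, and the 7 skeletal muscle markers stood at 1.65 and 3.15 in Sham and at 0.794 and 1.41 in IMQ. The skeletal muscle markers stood at 139% to 2330% of their level over all kept barcodes. Ckm, which is on that list, was higher in the Grem1 set in all 6 libraries. No gene of either list passed the test, and their part in the result was not tested. Pcp4, a calmodulin-binding peptide, stood at 204 and 265 in Sham skin, 16.1 and 28.2 in IMQ skin, and 46.8 and 14.3 in IMQ+SHP099 skin (log2 -3.41 ± 0.472, edgeR, adjusted p = 0.0233). The median log2 ratio of the Notch3 set to the Grem1 set was -4.39 for Pcp4, one of the 14. For Tnnt1 and Adcy1 it was -0.50 and -0.85, so neither is among them. Some of the 73 genes also fell within the Grem1 set itself. There Pcp4 stood at 969 and 478 CPM in Sham and at 89.6 and 186 in IMQ (log2 -2.22, edgeR, adjusted p = 0.00425). Tnnt1, the slow skeletal troponin T, stood at 152 and 143 against 3.09 and 5.13 (-4.95, edgeR, adjusted p = 1.54e-05). Adcy1, a calmodulin-stimulated adenylyl cyclase, stood at 54.4 and 93.2 against 3.09 and 5.13 (-4.19, edgeR, adjusted p = 6.67e-05). For all 3 genes both Sham libraries lay above both IMQ libraries, although Sham 1 rests on 9 barcodes.

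A few calcium-handling and contractile genes fell within the Grem1 set as well. Of 13 ion channel and calcium genes tested there 1 fell and none rose, namely Casq2, the calcium store protein calsequestrin, which fell by 1.88 on the log2 scale (edgeR, adjusted p = 0.00917). Of 30 contractile genes 4 fell, Synpo2 (-1.19), Tpm1 (-1.14), Ldb3 (-1.05) and Mylk (-0.97), and none rose, with a median log2 of -0.58. Srl, the gene of the calcium store protein sarcalumenin, fell by 1.77 (edgeR, adjusted p = 0.0194), and of 10 receptors of tone Adra1a fell (-1.24) and Ptgfr rose (2.43). In the Grem1 set 128 genes rose (1.72% of 7446) and 90 fell (1.21%), 2.93% in all. Of 30 chemokine, cytokine and acute-phase genes tested there 15 rose and none fell, with a median log2 of 2.33. Of 48 basement membrane and matrix genes 9 rose and none fell. Of 7 fibroblast markers 3 rose, Dcn, Lum and Pdgfra, at a log2 of 3.03, 2.53 and 1.91. The part of fibroblast transcripts in these increases was not tested. In the Notch3 set 27 rose (0.255% of 10573) and 59 fell (0.558%), 0.813% in all.

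Shank1, Lin7b and Kif1a, genes best known from neurons, also fell over all smooth muscle cells, by 3.46, 3.40 and 3.24 on the log2 scale. The cell cycle genes Top2a and Stmn1 were the third group. Stmn1, a microtubule regulator, stood at 25.2 and 72.4 in Sham skin, 6.35 and 8.29 in IMQ skin, and 12.1 and 11.4 in IMQ+SHP099 skin (log2 -2.91 ± 0.375, edgeR, adjusted p = 0.018). In Sham 2 as few as 10 of the 133 barcodes held at least 50% of the UMIs of the cell cycle list.

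The contractile programme itself did not pass the test in either direction when all smooth muscle cells were summed. Of 30 contractile genes outside the gate none was called in IMQ against Sham, 9 had an unadjusted p under 0.05 and a lower level, and the median log2 was -0.14. Within the Notch3 set the median was 0.24, of opposite sign, and 1 of 30 genes rose and none fell. Within the Grem1 set the median was -0.58, and 4 of 30 fell and none rose, as given above. Cnn1 stood at 658 and 852 in Sham skin, 600 and 736 in IMQ skin, and 1560 and 568 in IMQ+SHP099 skin. Lmod1, which nucleates actin filaments, stood at 475 and 598, 560 and 505, and 501 and 599, with groups that overlapped. Of 28 ion channel and calcium genes Casq2 fell and none rose, and of 24 receptors of tone Npr2 fell and none rose. In that sum none of 21 smooth muscle transcription factor and Notch genes, 17 integrins or 49 growth factors and receptors was called. Nor was any of 16 relaxation genes or 23 glycolysis and hypoxia genes. Within the Notch3 set 1 of 17 integrins rose, and 2 of 27 ion channel and calcium genes fell. Within the Grem1 set 2 of 11 relaxation genes fell, and of 34 growth factors and receptors 4 rose and 3 fell.

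Inflammatory signalling lists gave few calls when all smooth muscle cells were summed. Of 26 interferon-stimulated genes Parp14 fell and none rose, with a median log2 of -0.73, and 12 were lower without overlap against 24.1% of all genes tested. Of 29 immediate early and dissociation stress genes none was called, with a median of -0.54. None of 23 NF-kB regulators, 14 MHC class I genes or 12 genes of the Toll-like receptor 7 pathway was called in that sum. Within the Grem1 set 3 of 19 NF-kB regulators (Nfkbia, Cebpb and Cebpd) and 2 of 12 MHC class I genes (H2-K1 and H2-D1) rose. Irf7, also on the Toll-like receptor 7 list, fell there (log2 -1.77), and the interferon-stimulated gene Ifitm3 rose (1.73). Tlr7 itself was at 0 in 4 libraries and at 0.0942 and 0.199 in IMQ 2 and IMQ+SHP099 2, too low to be tested. Of 20 tested genes on the inflammation list that the study assembled, S100a9 and Ccl2 rose. How the genes of that list were chosen is not given in the sources used here. Of 19 proteases and inhibitors Serpina3n rose.

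Under SHP099 no gene passed the test when all smooth muscle barcodes of IMQ-treated skin were summed, although a few passed within the Grem1 set, as given below. None of 11118 genes passed in IMQ+SHP099 against IMQ (0%), 353 (3.18%) had an unadjusted p under 0.05, and DESeq2 called 1. Ptpn11, the gene of the drug target, stood at 75.7 and 93.2 in Sham skin, 85.8 and 81.3 in IMQ skin, and 104 and 85.1 in IMQ+SHP099 skin. Of 21 genes of SHP2, its adaptors and ERK output none passed, and their median was 0.02. A change in transcripts is not a measure of SHP2 activity.

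The genes named here by the smallest unadjusted p missed the threshold under SHP099, the acute-phase gene Saa3 among them. Saa3 stood at 1614 and 983 in IMQ and at 192 and 283 in IMQ+SHP099, which did not overlap (log2 -2.43 ± 0.336, edgeR, adjusted p = 0.908). Without the barcodes rich in fibroblast transcripts its log2 was 0.18, so that the direction turned. Cxcl14 (-2.30), Cp (-1.22), the tubulin-binding Tppp3 (86.7 and 83.7 against 185 and 154) and the nicotinamide methyltransferase gene Nnmt (-0.88) were likewise lower without overlap, as were 17% of genes tested, and missed the threshold. Efhd1 (1.12), Col4a6 (1.11), Bc1 (1.95), Vldlr (0.87) and Hsf2 (0.80) were higher without overlap and missed it (edgeR, adjusted p = 1). Col8a1 and Col12a1 had log2 values of 0.02 ± 0.308 and 0.00 ± 0.317, and S100a4 of -0.31 ± 0.290.

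Within the Grem1 set 8 of 7446 genes (0.107%) were lower in IMQ+SHP099 than in IMQ, and none was higher. They were Saa3 (-6.68), the chemokine gene Cxcl12 (-4.41), Ccdc80, Tnc (-3.50), Cpxm1, Thbs1, Ctsk and the fibroblast gene Dcn (-1.79). IMQ+SHP099 1 had 17 barcodes of this set. Dcn is also among the genes that define the barcodes rich in fibroblast transcripts. No fit within the Grem1 set was made without those barcodes, so their part in these 8 genes was not tested. In the Notch3 set 0 of 10573 genes passed.

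No contractile gene passed under SHP099. Of 30 genes none was called, 1 had an unadjusted p under 0.05, and 15 were higher without overlap, against 15.5% of all genes tested, with a median log2 of 0.22. The median was -0.21 for the matrix list, -0.25 for the chemokine and acute-phase list, and -0.28 for the interferon-stimulated list. No gene of any list passed in this comparison over all smooth muscle cells.

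A few matrix, chemokine and acute-phase genes also rose in IMQ+SHP099 against Sham, 3 of 53 genes on the matrix list and 4 of 38 on the chemokine, cytokine and acute-phase list. In this comparison, which shares the Sham libraries with the comparison above, 12 of 11118 genes rose (0.108%) and 10 fell (0.0899%), 0.198% in all, and 1723 had an unadjusted p under 0.05. Without IMQ+SHP099 1 none of the genes passed, without Sham 2 only 1 gene did, and without Sham 1 there were 517. Col8a1 (3.34 ± 0.400, edgeR, adjusted p = 0.0251), Tnc (3.45), Serpina3n (3.33), Col12a1 (2.72), S100a4 (2.27), Ccl7 (4.50) and Ccl2 (2.73) rose. Saa3 and Lcn2 were at least 211-fold and 41.1-fold higher, and Rasl10b, A730049H05Rik and 4631405J19Rik completed the risen genes. Without the barcodes rich in fibroblast transcripts, which held 90.9% of the Lcn2 and 78.9% of the Ccl7 UMIs in IMQ+SHP099, Lcn2 and Ccl7 missed the threshold in this comparison (edgeR, adjusted p = 0.225 and 0.0575), while Saa3 and Ccl2 passed (both 0.0233).

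Among the 10 genes that fell against Sham were Adcy1 (-5.68), Kif1a (-4.84), Tnnt1 (-3.69), the clock-controlled transcription factor gene Hlf (-3.57), Srl (-2.65), Tmtc2 (-2.52), Rnf122 (-2.05), Sox4 (-1.85) and Parp14 (-1.81). Parp14 stood at 57.3 and 44.2 in Sham skin, 19.1 and 19.6 in IMQ skin, and 13.9 and 13.8 in IMQ+SHP099 skin. Within the Notch3 set Tnnt1 and Srl had positive values of 1.09 and 0.52.

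Whether IMQ acted alike on smooth muscle cells and pericytes was tested as an interaction with the library as a block, and values in this paragraph and the next are CPM before TMM scaling. Of 10030 genes 25 passed (0.249%), 2 with a more positive and 23 with a more negative change in smooth muscle, and 981 had an unadjusted p under 0.05. Of the 25 genes 7 were on the cell cycle list. Cdk1, the mitotic kinase, stood at 2.32 and 22 CPM in Sham smooth muscle and at 0.814 and 1.31 in IMQ, whereas in pericytes it stood at 0 and 3.25 in Sham and at 43.3 and 59.2 in IMQ (interaction log2 -8.33, edgeR, adjusted p = 3.71e-04). Cdk1 was thus lower in IMQ than in Sham smooth muscle and higher in IMQ than in Sham pericytes. Its Sham values, apart from Sham 2 smooth muscle, rest on very few UMIs. Barcodes with Mki67 or Top2a, both cell cycle genes, made up 1.54% and 9.02% of Sham smooth muscle. In IMQ smooth muscle they made up 1.22% and 1.99%, which overlapped Sham. In pericytes they made up 0% and 8.955% in Sham and 12.04% and 10.37% in IMQ, without overlap. In IMQ 1 and IMQ 2 pericytes 11 and 10 barcodes held at least 50% of the cell cycle UMIs.

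Genes described above in the smooth muscle barcodes were among the others. Grem1 (-6.46), Casq2 (-2.53) and Tnnt1 (-4.96) had more negative changes in smooth muscle, as did Plat, the tissue plasminogen activator gene (-4.06). In smooth muscle Grem1, a gene of the split, stood at 109 and 710 in Sham and at 120 and 86.9 in IMQ. These groups overlapped, and the highest value was that of Sham 2. In pericytes Grem1 stood at 0 and 1.08 in Sham and at 16.2 and 11.7 in IMQ. Emb, an adhesion molecule gene, stood at 72.0 and 30.6 in Sham and 99.4 and 107 in IMQ smooth muscle, against 219 and 82.4 and then 55.8 and 88.1 in pericytes (2.04, edgeR, adjusted p = 0.0183). Angptl4, an inhibitor of lipoprotein lipase, was the other with a more positive change (1.80). For IMQ+SHP099 against IMQ 1 gene passed (0.00997%), Stmn1 (3.42, edgeR, adjusted p = 0.0173).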

How the data were processed

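Dorsal skin was dissociated and sequenced as droplet-based single cells. The authors aligned reads with Cell Ranger 3.1.0 to mm10 (GRCm38) and deposited raw UMI counts per gene and barcode for each library. Barcodes had to hold fewer than 100000 UMIs, fewer than 6500 genes and less than 10% mitochondrial transcripts, which left 50850 of 55201 deposited. Deposited UMIs ranged from 53913865 to 188283327 a library. No doublet caller was run. The gate was rebuilt from the counts, since cell labels were not used here.

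UMIs were summed per library over smooth muscle barcodes, filtered with filterByExpr, scaled by TMM and fitted over all 6 libraries with edgeR 4.0.16 (R 4.3.3, quasi-likelihood test, group means), calls being made at a Benjamini-Hochberg adjusted p under 0.05. DESeq2 1.42.0 was an alternative. Scripts were tested on simulated data. Named genes had a mean of at least 20 CPM in a group, no overlap between libraries and, of those called, the 12 largest changes in each direction. Where fewer than 5 passed, those of smallest unadjusted p up to 5 were named and said to have missed. Members of 20 gene lists (up to 6 a list) and the 12 highest and 8 lowest ratios to pericytes were also named. Gja4, Gja5 and other genes outside these rules were chosen after their values were seen. Ratios to pericytes used a pseudocount of 1 and ratios between the sets one of 10 CPM. The members and the gene lists were chosen with earlier results of these data known. A gene that these rules name is not reported here. Gene positions came from GENCODE (GRCm38).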

Additional observations from a re-analysis of the deposited data

Results flagged for a closer look

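The change from Sham to IMQ differed between smooth muscle cells and pericytes, by the interaction test in edgeR, for 7 named genes. On the log2 scale the difference between the changes was 2.04 for Emb and 1.80 for Angptl4, and -13.45 for Pbk, -8.52 for Hist1h2ap, -8.33 for Cdk1, -7.49 for Ube2c and -7.02 for Pclaf. The last 5 genes act in cell division or DNA replication. Each of these 5 was at 0 in the Sham 1 pericytes, and Pbk was at 0 in the pericytes of both Sham libraries, so their fitted differences depend on the prior count and are no bounds. In Sham 2, 10 of 133 smooth muscle barcodes held at least 50% of the UMIs of the cell cycle list, and in IMQ 1 and IMQ 2 pericytes 11 of 108 and 10 of 164 barcodes did. From IMQ to IMQ+SHP099 the changes differed for Stmn1, by 3.42. In pericytes Stmn1 stood at 109 and 129 CPM in IMQ and at 22.7 and 14.8 in IMQ+SHP099, whereas in smooth muscle it stood at 6.19 and 8.23 and then at 11.4 and 10.5.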

How the results depend on the processing

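The counts of called genes moved with the libraries and the gate far more than with scaling, and n = 2 libraries a group and the low Sham depth limit them. For IMQ against Sham, 120 genes became 1006 without the filter on low counts, 187 under a stricter gate, 275 without barcodes rich in fibroblast transcripts, 6 with a mitochondrial limit of 5%, 57 when only both groups were fitted and 218 within the Grem1 set. Leaving out 1 library gave 12 to 590. For IMQ+SHP099 against IMQ, 0 became 63 without the filter, 1 with DESeq2, 8 within the Grem1 set, and 0 to 5 with 1 library left out. For IMQ+SHP099 against Sham, 22 became 902 without the filter, 114 under the stricter gate, 172 without fibroblast-rich barcodes, 4 at the 5% limit, 155 with DESeq2, 40 with only both groups fitted, 40 within the Notch3 set, 54 within the Grem1 set, and 0 to 517 with 1 library left out. The interaction went from 25 to 245 without the filter, 71 under the stricter gate and 12 to 251 with 1 library left out for IMQ against Sham, and from 1 to 67, 2 and 0 to 6 for SHP099 added to IMQ. The causes were not tested. The smooth muscle share difference ranged from 16.34 to 33.54 percentage points for IMQ against Sham, and from -9.9 to 3.594 for IMQ+SHP099 against IMQ, where it turned positive without IMQ+SHP099 1.

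A block for the replicate number gave 32 genes for IMQ against Sham, none for SHP099 added to IMQ, 7 for IMQ+SHP099 against Sham, and 54 and 4 for the interactions. Same-numbered libraries did not deviate together (correlations of 0.008, -0.090 and 0.038). With 2 libraries a group, these correlations cannot show whether same-numbered libraries were processed together. Of the 120 genes called in IMQ against Sham, 6 of the 92 tested within the Notch3 set turned from lower to higher, namely Tnnt1 (1.36), Prune2 (0.90), Srl (0.78), Npr2 (0.205), Efna5 (0.13) and Ucp2 (0.12). Within the Grem1 set 3 of 82 turned from higher to lower, Got1 (-0.58), Fstl3 (-0.21) and Myof (-0.02), and without fibroblast-rich barcodes 1 of 114 did, Apod (-1.29). None of these passed in its new direction. Directions also turned for Saa3 in IMQ+SHP099 against IMQ without fibroblast-rich barcodes (0.18), and for Tnnt1 (1.09) and Srl (0.52) in IMQ+SHP099 against Sham within the Notch3 set. The fits within the Notch3 and Grem1 sets were chosen after seeing the data.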

Other observations

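Itga8 was counted in smooth muscle cells at 321 and 524 CPM in Sham skin, 244 and 224 in IMQ skin, and 210 and 309 in IMQ+SHP099 skin, against 1.33 to 35.0 over all kept barcodes (CPM after TMM scaling). Its level did not pass the test in any comparison (IMQ against Sham, edgeR, adjusted p = 0.197).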
